A study of Mus musculus with 294 samples.

Results

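The insulin-like growth factor binding proteins Igfbp2, Igfbp3, Igfbp4, Igfbp5 and Igfbp7 were followed together with the ligand Igf1 and the receptor Igf1r in single neural crest cells of the developing mouse heart. The 7 genes, 5 of them binding proteins, were chosen by name out of the 15124 genes of the deposited count table, and were read in every cell of that table. The cells came from the region of the septum that divides the outflow tract into aorta and pulmonary artery, in embryos of 4 stages, the youngest being E11.5 and the oldest E17.5, with E12.5 and E14.5 between them. Every embryo carried the genotype Wnt1-Cre; R26-EYFP, and no cell was treated. The Wnt1 regulatory sequence switches on Cre in the neural crest, and the reporter then marks those cells and their descendants with the fluorescent protein EYFP, so that only cells sorted as EYFP-positive are in the data. The labels give neither the stage nor the animal of a cell, so all cells formed 1 group and counted as 1 sample. No comparison between stages was made and no test between cells was run. Where cells are set apart below, it is by the leading digit of their names, which forms 7 name series of 58, 48, 38, 38, 34, 34 and 44 cells, or by their level of Acta2 and Dcn. The labels do not say what the digit stands for, so name series are no groups of the study.

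As background, the ligands Igf1 and Igf2 are secreted growth factors that bind the receptor tyrosine kinase Igf1r and act through insulin receptor substrates, phosphatidylinositol 3-kinase and Akt. The binding proteins are secreted as well. They hold the ligands in the extracellular space, can block or prolong their action there, and are cut by proteases that set the ligand free. Igfbp7 binds the insulin-like growth factors only weakly and is often counted as a related protein rather than a classical member of the family. In the outflow tract, neural crest cells give rise to smooth muscle of the great arteries and to mesenchyme of the septum and the valves. Acta2 encodes smooth muscle actin and Dcn encodes decorin, a proteoglycan of fibroblasts and other matrix-forming cells.

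The promoters of 4 binding proteins are printed here because these genes show the patterns described below. Igfbp2 was high in a few cells with Acta2, Igfbp3 was high in a few cells with Dcn, Igfbp4 was present in most cells, and Igfbp7 led the family in about as many cells as all others together. Each window holds the 250 bases before a start site that RefSeq gives on GRCm38.p6, read 5′ to 3′ on the strand of the gene. Capitals mark a GC box (GGGCGG) or a TATA box (TATAAA) on either strand.
Igfbp2, chr1:72824230-72824479, plus strand: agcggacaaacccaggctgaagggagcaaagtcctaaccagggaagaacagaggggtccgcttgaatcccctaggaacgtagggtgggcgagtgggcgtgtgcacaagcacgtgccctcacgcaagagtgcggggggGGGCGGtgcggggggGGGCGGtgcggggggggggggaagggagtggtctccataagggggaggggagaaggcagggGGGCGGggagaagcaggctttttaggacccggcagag
Igfbp3, chr11:7213924-7214173, minus strand: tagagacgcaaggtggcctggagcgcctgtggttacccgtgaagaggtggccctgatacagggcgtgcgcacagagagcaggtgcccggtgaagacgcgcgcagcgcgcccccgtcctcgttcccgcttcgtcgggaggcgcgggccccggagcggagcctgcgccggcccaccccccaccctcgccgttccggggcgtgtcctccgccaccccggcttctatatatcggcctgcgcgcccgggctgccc
Igfbp4, chr11:99040994-99041243, plus strand: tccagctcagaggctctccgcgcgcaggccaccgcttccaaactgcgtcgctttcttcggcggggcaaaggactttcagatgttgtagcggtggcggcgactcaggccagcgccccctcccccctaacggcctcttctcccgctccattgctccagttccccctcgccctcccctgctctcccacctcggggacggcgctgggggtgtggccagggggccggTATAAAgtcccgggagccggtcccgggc
Igfbp7, chr5:77408046-77408295, minus strand: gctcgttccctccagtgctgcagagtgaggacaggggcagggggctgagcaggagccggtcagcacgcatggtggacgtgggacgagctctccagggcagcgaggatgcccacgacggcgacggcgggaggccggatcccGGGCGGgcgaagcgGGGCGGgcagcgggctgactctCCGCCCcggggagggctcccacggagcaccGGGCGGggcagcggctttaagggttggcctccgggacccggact

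The printed Igfbp2 window held 3 GC boxes and the Igfbp7 window held 4, while the windows of Igfbp3 and Igfbp4 held none. RefSeq gives Igfbp2 a second start site, whose window (chromosome 1, 72825137 to 72825386) has 65 bases in an annotated exon, held no GC box and was 56.4% G and C. Igfbp4 held a TATA box 28 bases before its start site. Across 32851 mouse promoter windows of the same length, 32.7% held a GC box and 12.4% a TATA box. The CArG box, the motif of many smooth muscle genes, was searched on both strands too and matched none of the 4 printed windows, against 1.47% of all windows. A missing match says only that these letters are not in the window. The 4 printed windows were rich in G and C, at 67.2%, 73.2%, 69.2% and 74% for Igfbp2, Igfbp3, Igfbp4 and Igfbp7, against a median of 52.4% over all windows.

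Levels are given as CPM, a gene's reads per 1000000 reads of its cell. A cell had between 34046 and 3033857 reads, with a median of 1204543. The reads carry no molecular identifiers. Because no animal is named, intervals and limits given here cover counting error over cells only and leave out any spread between embryos. From 10 CPM on a gene counts as detected in a cell, and from 100 CPM on as high. In series 1, nearly all abundant genes had at least a few reads in every cell: the low end of a cell's abundant genes lay at a median of 2.43% of the series mean in all 58 cells, against a median of 0 in every other series. For this reason a share at 10 CPM in series 1 is an upper limit, and shares are also given without it. Every cell of series 1 also had Dcn at 100 CPM or more, the lowest at 139.7 CPM. The Dcn level therefore does not divide the cells of that series, and the part of such low reads in it was not tested. At least 2 fibroblast and mesenchyme markers reached 100 CPM in 98.98% of cells, and at least 2 smooth muscle markers in 62.6%. By the same rule 9 cells had glia markers, 2 endothelium, 6 cardiomyocyte and 6 epicardium markers, and no blood marker listed was a row of the table.

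Igfbp4 (ENSMUSG00000017493.12, GRCm38 chromosome 11, 99041244 to 99054392, plus strand), a binding protein that is cut by the protease Pappa, was the most widely detected binding protein. It reached 10 CPM in 78.2% of cells (exact 95% interval 73.1% to 82.8%), with a median of 187.7 CPM and a highest cell at 1858 CPM. Igfbp7 (ENSMUSG00000036256.13, chromosome 5, 77349240 to 77408041, minus strand) was detected in 61.6% of cells (55.7% to 67.2%), with a median of 166.1 CPM and a maximum of 3748 CPM. Igfbp5 (ENSMUSG00000026185.8, chromosome 1, 72857932 to 72874884, minus strand), which also binds extracellular matrix, was detected in 41.2% (35.5% to 47.02%), with a median of 3.89 CPM and a maximum of 4558 CPM. These 3 genes were thus present at some level in a large part of the cells.

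Igfbp2 and Igfbp3 were rare. Igfbp2 (ENSMUSG00000039323.18, chromosome 1, 72824503 to 72852474, plus strand) was detected in 17.3% of cells (13.2% to 22.2%), a share of 10.6% once series 1 was left out. Igfbp3 (ENSMUSG00000020427.11, chromosome 11, 7206086 to 7213923, minus strand), the main carrier of the ligands in serum, was detected in 15.3% (11.4% to 19.9%), or 8.90% with series 1 left out. Both had a median of 0 CPM, yet their highest cells held 1649 and 2201 CPM. A 50% share of the summed CPM over all cells lay in 6 cells for Igfbp2 and in 5 cells for Igfbp3, against 15 for Igfbp5, 33 for Igfbp7 and 46 for Igfbp4. Igfbp2 and Igfbp5 are neighbours on chromosome 1, with 5457 bases between their 3′ ends.

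The ligand and its receptor were detected in most cells. Igf1 (ENSMUSG00000020053.18, chromosome 10, 87858265 to 87937042, plus strand) was detected in 74.5% of cells (69.1% to 79.4%), with a median of 255.4 CPM and a maximum of 9470 CPM. Igf1r (ENSMUSG00000005533.10, chromosome 7, 67952827 to 68233668, plus strand) was detected in 67.7% (62.01% to 73%), with a median of 44.3 CPM and a maximum of 2415 CPM. Both reached 10 CPM in 50.0% of cells, against 50.99% from the product of their shares within each name series, so that ligand and receptor occurred in the same cells about as often as their separate shares give. At 10 CPM, 53.8% of all genes had a share below that of Igfbp2 and 95.4% a share below that of Igfbp4, and the median gene was detected in 14.6% of cells.

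Compared per length, as mean CPM per kb of annotated exon, Igfbp7 stood first at 334, with Igfbp4 at 72.5, Igf1 at 64.6, Igfbp2 at 21.6, Igfbp5 at 20.5, Igfbp3 at 18.3 and Igf1r at 8.71. Means of single name series spread widely around these values, from 59.6 to 768.7 per kb for Igfbp7, 36.4 to 118.7 for Igfbp4 and 28.8 to 112.6 for Igf1. The ranges of Igfbp4 and Igf1 overlap nearly in full, and that of Igfbp7 overlaps both at its low end. Igfbp2 (1.75 to 43.5), Igfbp5 (10.1 to 41.3) and Igfbp3 (0 to 75.7) could not be ordered beyond their spread. Of the exon bases of Igfbp7, 7.03% are shared with Polr2b on the other strand, and whether the counting used strand is not given in the sources used here.

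The 7 genes differed in how their means moved over the name series. With 10 CPM added, the highest series mean was at least 4-fold above the lowest for 3 of the 7 genes, Igfbp2, Igfbp3 and Igfbp7. This held for 27.9% of the 8853 genes detected in at least 10% of cells, for which the median was 3.0-fold, so the share among the 7 was near that of all genes. The fold was 24.7 for Igfbp3, 11.4 for Igfbp7 and 6.83 for Igfbp2, and lay between 2.71 and 3.82 for Igfbp4, Igfbp5, Igf1 and Igf1r. Without series 2 the fold of Igfbp3 was 8.61, and without series 6 that of Igfbp2 was 3.997, under the 4-fold limit, which left 2 of the 7 genes.

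Igfbp3 was almost limited to the cells of series 1 and 2. Its mean was 76.1 CPM in series 1 (0 to 1233, median 5.29) and 236.8 CPM in series 2 (0 to 2201, median 0.514). Series 7 had a mean of 15.9 CPM with 3 cells at 100 CPM, series 3 a mean of 8.93 CPM from 1 high cell, and series 6 had reads in 2 cells, up to 1.61 CPM. In series 4 and 5 no cell had a read of Igfbp3, 0 of 38 and 0 of 34, which by 3 counts limits the share of cells with a read to 7.89% and 8.82%.

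Igfbp7 divided the name series into a higher and a lower set. Its lowest, median and highest levels were 23.4, 667.5 and 3748 CPM in series 1 and 0, 558.4 and 3104 CPM in series 2. In series 3 to 7 the lowest level was 0, the medians were 53.2, 0, 60.02, 0 and 0 CPM and the maxima lay between 399 and 1476 CPM. Igfbp7 was detected in 100% and 91.7% of cells of series 1 and 2, in 47.4% to 55.9% of series 3 to 5, and in 26.5% and 27.3% of series 6 and 7. With every cell thinned to 203620 reads, which left out 15 shallower cells, these shares were 100% and 95.3%, 45.9% to 57.6%, and 23.5% and 27.9%.

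Igf1 was lowest in series 2. Its median there was 0.516 CPM (0 to 3626), with 39.6% of cells at 10 CPM, against medians of 268.8 CPM in series 1, 132.8 CPM in series 3 and 470.7 to 568.1 CPM in series 4 to 7. Its highest cell, at 9470 CPM, was in series 6. Igfbp4 had medians from 48.1 CPM in series 6 to 367 CPM in series 2, and Igf1r from 13.96 CPM in series 4 to 74.9 CPM in series 7. Igfbp5 had a median of 31.9 CPM in series 1 and of at most 0.927 CPM in the others, with cells above 800 CPM in every series. Ranges of single cells overlapped between all series for each of these genes.

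**Figure D1:**
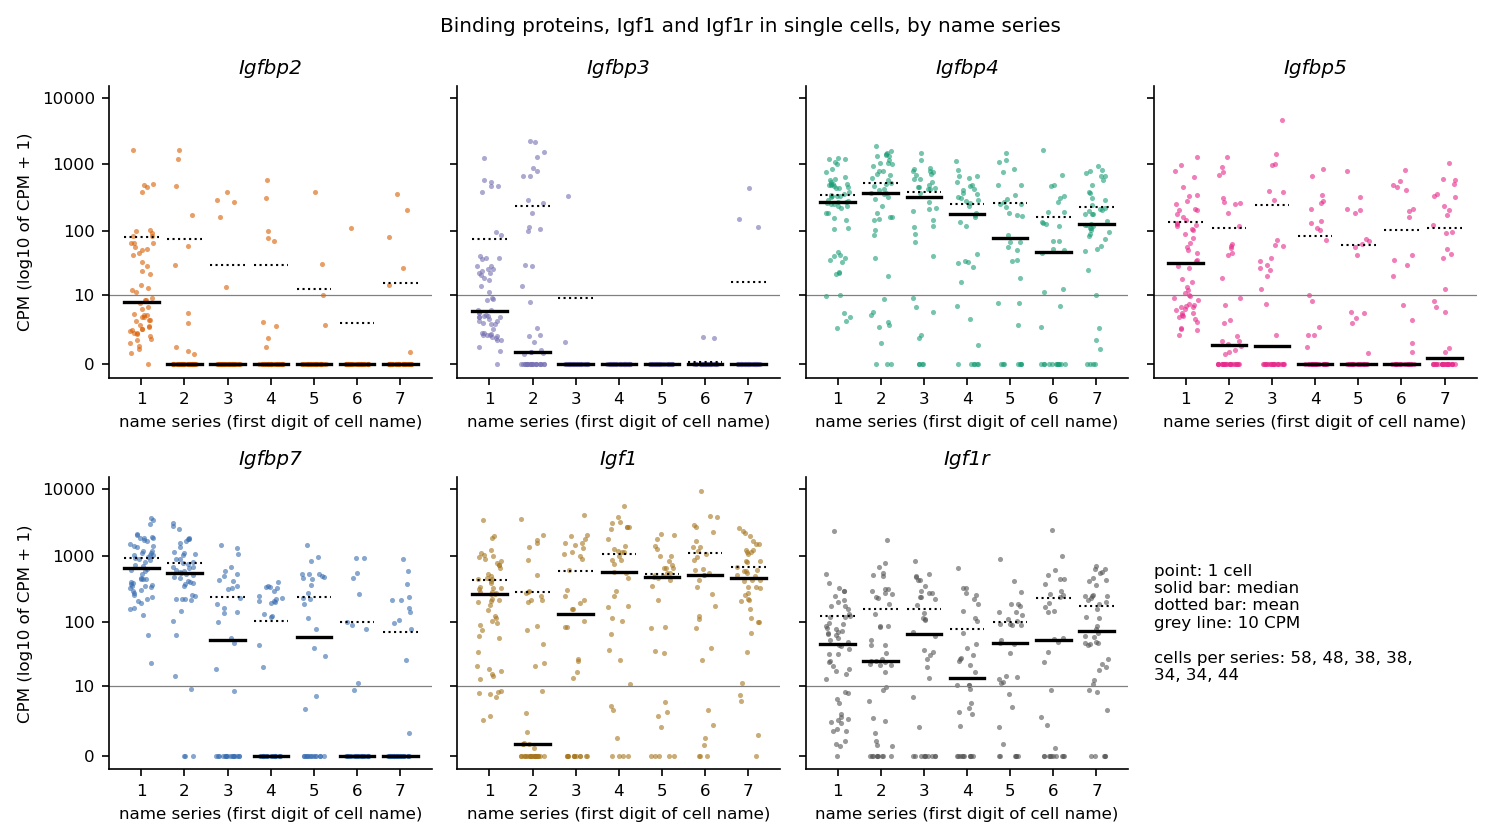
Level of the 5 binding proteins, Igf1 and Igf1r in each cell (vertical axis: CPM on a log10 scale with 1 added), by name series (horizontal axis). Solid bars are medians, dotted bars are means and the grey line is 10 CPM; Igfbp3 has no cell at 10 CPM in series 4, 5 and 6, and Igfbp7 has medians of 667.5 and 558.4 CPM in series 1 and 2 and of at most 60.02 CPM in the others.

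Most cells used few binding proteins at a time. At 10 CPM, 6.80% of cells had none of the 5, 26.2% had 1, 30.95% had 2, 22.4% had 3, 9.86% had 4 and 3.74% had all 5. All 11 cells with 5 belonged to series 1. Without series 1, 32.6% of cells had 1 and 33.5% had 2.

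To say which binding protein led in a cell, CPM per kb was compared among those at 10 CPM or more. Igfbp7 led in 150 cells (51.02%, exact 95% interval 45.2% to 56.9%) and Igfbp4 in 87 (29.6%, 24.4% to 35.2%). Igfbp5 led in 21 cells, Igfbp2 and Igfbp3 in 8 each, and 20 cells had no leader. Without the correction for length Igfbp4 led in 42.2% and Igfbp7 in 34.4%, so the order of these 2 rests on the length. The leader held a median of 83.2% of the summed level per kb, and over 90% of it in 41.6% of the cells with a leader.

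The leader changed with the name series. Igfbp7 led in 86.2% and 72.9% of cells in series 1 and 2, in 39.5% to 47.1% in series 3 to 5, and in 23.5% and 22.7% in series 6 and 7. Igfbp4 led in 8.33% to 10.3% of cells in series 1 and 2 and in 52.3% in series 7. Igfbp5 led in 20.6% of series 6, and 26.5% of that series had no binding protein at 10 CPM. Igfbp3 led in 12.5% of series 2 and in no cell of series 3 to 6. By class of cell, Igfbp7 led in 76.1% of the 92 cells with both Acta2 and Dcn at 100 CPM (66.7% without series 1), in 49.2% of the 63 with Acta2 only, in 40.98% of the 61 with Dcn only, and in 30.8% of the 78 with neither. Igfbp4 led in 44.9% of the cells with neither. The classes held different name series, with 50 of the 92 cells with both genes in series 1 and 68 of the 78 with neither in series 4 to 7, so class and series cannot be told apart in these shares. Within series 2 and 3 the order differed: Igfbp7 led in 8 of 10 cells with neither gene, of which 6 had glia markers, in 9 of 12 with Acta2 only, in 74.1% of 27 with both and in 37.8% of 37 with Dcn only. Its median there was 1254 CPM with neither gene and 352 CPM with both.

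**Figure D2:**
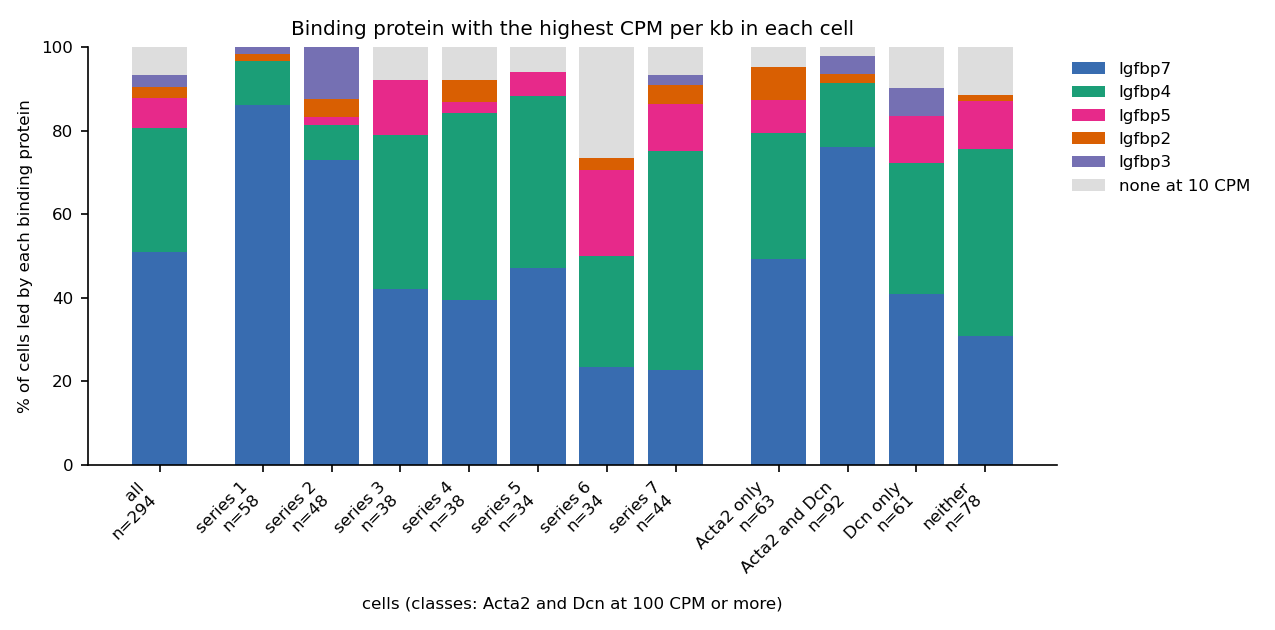
Share of cells (vertical axis, %) in which each binding protein had the highest CPM per kb, for all cells, each name series and the 4 classes set by Acta2 and Dcn at 100 CPM. The Igfbp7 share is 86.2% in series 1 and 22.7% in series 7, where Igfbp4 leads in 52.3%.

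Cells were then split by Acta2 at 100 CPM, with 50, 25, 14, 20, 16, 8 and 22 cells of series 1 to 7 at or above it and 8, 23, 24, 18, 18, 26 and 22 below, and means were averaged with equal weight over the 7 name series. Of the 7 genes, 1 was at least 2-fold higher in the Acta2 cells, Igfbp2, where 2.38% of 8852 genes were, and none was at least 2-fold lower, where 1.80% were. None was 2-fold higher and higher in every series, which held for 0.328% of genes, or 2-fold lower and lower in every series, which held for 0.226%. The median fold was 0.975 over all genes and 0.805 over the 7. Acta2 cells were somewhat deeper, with a mean over series of the median total of 1298209 reads against 1122950, and of the median number of genes of 4921 against 4245. The part of depth in these folds was not tested. By Acta2, 31 cells lay between 50 and 200 CPM, near the split.

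Igfbp2 followed Acta2. Its mean was 58.7 CPM in cells with Acta2 at 100 CPM and 5.32 CPM in the others, a 4.49-fold difference with 10 CPM added, which was 9.46-fold with 1 CPM added and 1.51-fold, under the limit, with 100 CPM added. It was higher in 6 of 7 series, with folds from 2.38 to 15.0, and 0.952 in series 7. In series 2, the 25 Acta2 cells ranged from 0 to 1629 CPM with a median of 0 and 4 cells at 100 CPM, while the 23 others reached at most 3.12 CPM. In series 1, 6 of 50 Acta2 cells were at 100 CPM (0.00 to 1649 CPM) and none of the 8 others, which reached 42.3 CPM. Most Acta2 cells held no Igfbp2, so the difference came from a few cells with a high level.

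Of the 20 cells with Igfbp2 at 100 CPM, 18 also had Acta2 at 100 CPM (90%, exact 95% interval 68.3% to 98.8%), against 52.7% of all cells. Without series 1 these were 12 of 14 cells, against 44.5%. By Dcn the order turned: in the 5 series with at least 5 cells on either side, mean Igfbp2 was 5.45 CPM with Dcn at 100 CPM and 74.7 CPM below, a fold of 0.182, and it was lower in 5 of 5 series (0.0534 to 0.718). This fold was 0.353 without series 2, 0.0852 with 1 CPM added and 0.604, within the limit, with 100 CPM added. Among the 4 classes, 11 of 63 cells with Acta2 only had Igfbp2 at 100 CPM, against 7 of 92 with both genes, 1 of 61 with Dcn only and 1 of 78 with neither. Without series 1, where every cell had Dcn at 100 CPM, 1 of 42 cells with both genes and 1 of 53 with Dcn only had Igfbp2 at 100 CPM. The 12 cells of series 2 and 3 with Acta2 only held 6 such cells. With series 1 left out, 2 of 14 high Igfbp2 cells had Dcn at 100 CPM, so the gene was there mostly in cells with Acta2 and without Dcn.

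The split by Dcn at 100 CPM could be made in series 2, 3, 4, 6 and 7, with 33, 31, 7, 6 and 16 cells at or above it and 15, 7, 31, 28 and 28 below. Of the 7 genes, 2 were at least 2-fold higher in the Dcn cells, Igf1 and Igfbp3, where 3.95% of 8852 genes were, and 1 was at least 2-fold lower, Igfbp2, where 4.81% were. Igf1 was also higher in every series used, which held for 0.926% of genes together with the 2-fold limit, and Igfbp2 was lower in every series used, which held for 1.5%. The median fold was 0.971 over all genes and 1.13 over the 7. Depth was close on both sides, with 1232265 and 1233383 reads and 4029 and 3934 genes as means of the series medians. Near the split, 12 of all cells had between 50 and 200 CPM of Dcn.

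Igfbp3 followed Dcn, mostly through series 2. Its mean was 76.1 CPM with Dcn at 100 CPM and 5.21 CPM below, a 5.66-fold difference. In series 2 the 33 Dcn cells ranged from 0 to 2201 CPM, with a mean of 335.1 CPM and 12 cells at 100 CPM, while the 15 others had a mean of 20.6 CPM and 1 such cell, at 182.9 CPM. The folds were 11.3 in series 2, 2.89 in series 7, 2.095 in series 3 and 1.02 in series 6, and series 4 had no reads. Without series 2 the averaged fold was 1.88, under the 2-fold limit. It was 12.4 with 1 CPM added and 1.67 with 100 CPM added.

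Of the 23 cells with Igfbp3 at 100 CPM, 21 had Dcn at 100 CPM (91.3%, exact 95% interval 71.96% to 98.9%), against 52.04% of all cells, and without series 1 these were 15 of 17 against 40.3%. The shares set beside them are over all series, while most of the 23 cells lay in series 1 and 2. Dcn was at 100 CPM in every cell of series 1 and in most cells of series 2. How much of the contrast comes from the series was not tested. By Acta2 these 23 cells divided more evenly, with 16 at 100 CPM. Igfbp2 and Igfbp3 were both at 100 CPM in 0 cells, a count that by 3 counts still leaves room for 1.02% of cells, or 1.25% by the exact interval. The product of their shares within name series was 0.66%, below these limits, so an absence of such cells beyond what the shares give was not detectable at this number of cells.

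**Figure D3:**
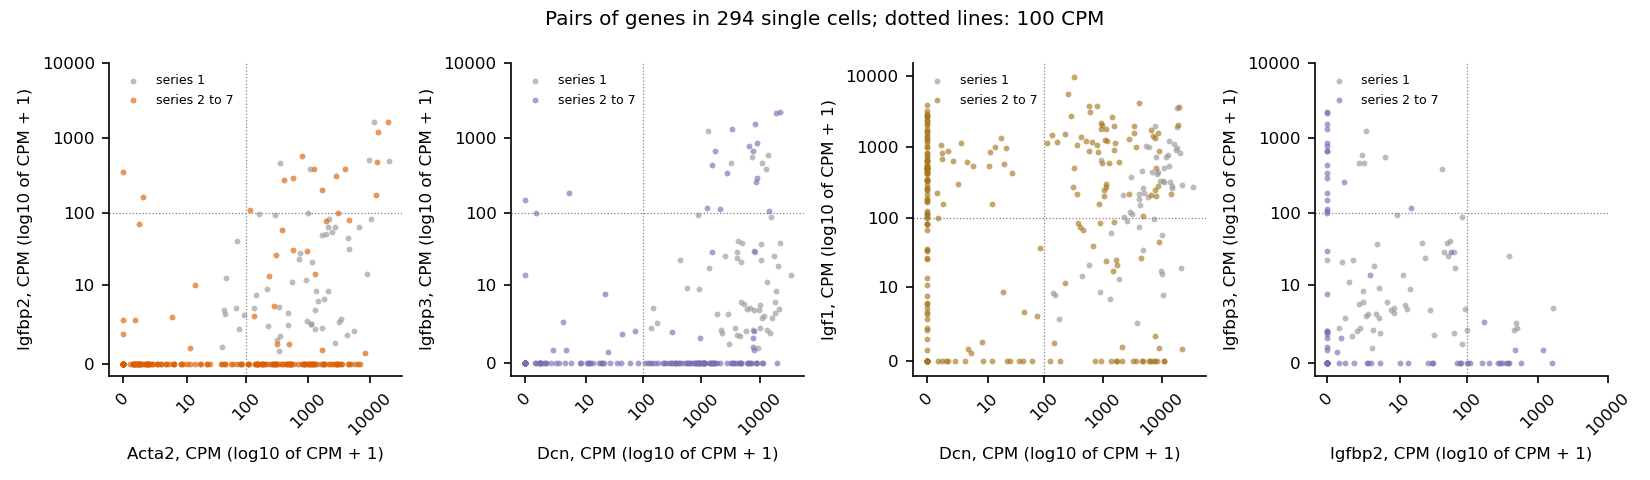
Level of Igfbp2 against Acta2, Igfbp3 and Igf1 against Dcn, and Igfbp3 against Igfbp2 in single cells (both axes: CPM on a log10 scale with 1 added; grey points are series 1). The upper right field above the dotted lines at 100 CPM holds 18 of the 20 high Igfbp2 cells by Acta2 and 21 of the 23 high Igfbp3 cells by Dcn, and no cell for Igfbp2 with Igfbp3.

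With the split at 100 CPM, the other binding proteins did not pass the 2-fold limit by either gene. Igfbp4 had folds of 1.04 by Acta2 (0.547 to 2.15 over the series) and 1.13 by Dcn (0.502 to 2.80). Igfbp5 had folds of 0.653 by Acta2 (0.370 to 2.39) and 1.44 by Dcn (0.192 to 12.8). For Igfbp7 the folds were 0.805 by Acta2 (0.490 to 4.78) and 0.683 by Dcn (0.456 to 1.87). The direction of the fold differed between series for all 3 genes. By Acta2, shares of cells at 10 CPM, averaged over series, went the other way from the folds of Igfbp5 and Igfbp7. These shares were 45.8% of Acta2 cells against 38.1% of the others for Igfbp5, and 69.5% against 48.4% for Igfbp7. By Dcn, Igfbp5 turned to 0.485, past the limit on the lower side, when Dcn was split at the median of each series, and was 0.833 without series 3 and 2.13 without series 7. Igfbp4 by Dcn turned to 0.775 without series 2, and Igfbp7 by Acta2 to 1.16 without series 1. Without the 23 cells that had 2 markers of glia, endothelium, cardiomyocytes or epicardium, an alternative chosen after the data were seen, Igfbp7 moved to 1.196 by Acta2 and 0.980 by Dcn, and without series 2 to 1.31 by Dcn.

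Igf1 was higher in Dcn cells in each of the 5 series. Its mean was 1458 CPM with Dcn at 100 CPM and 424.4 CPM below, a 3.38-fold difference (2.09-fold with the split at the median of each series), with folds of 13.4, 11.4, 3.31, 3.54 and 1.75 in series 2, 3, 4, 6 and 7. In series 2 the 33 Dcn cells had a median of 24.1 CPM (0 to 3626) and the 15 others a median of 0 (0 to 301). In series 4 the 7 Dcn cells had a median of 2731 CPM (0.829 to 5544) and the 31 others 292.02 CPM (0 to 3193). Both sides overlapped in every series. By Acta2 the Igf1 fold was 0.794, with 6 of 7 series lower. Of the cells with Igf1 at 100 CPM, 97 (53.3%) had Dcn at 100 CPM, against 52.04% of all cells. Without series 1 the Dcn share was 40.6%, against 40.3% of all cells outside that series. Acta2 was at 100 CPM in 96 (52.7%), against 52.7% of all cells, so high Igf1 was not limited to either class.

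Igf1r leaned the other way, within the 2-fold limit at this split and at 0.474 with Dcn split at the median of each series. Its mean was 106.8 CPM with Dcn at 100 CPM and 190 CPM below, a fold of 0.585, and it was lower in 5 of 5 series (0.143 to 0.859). By Acta2 its mean was 158.01 CPM against 126.5 CPM, a fold of 1.23, with 6 of 7 series higher (0.582 to 1.86). At 10 CPM it was detected in 75.7% of Acta2 cells and 58.2% of the others, averaged over series. Ranges of single cells overlapped in every series here as well.

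**Figure D4:**
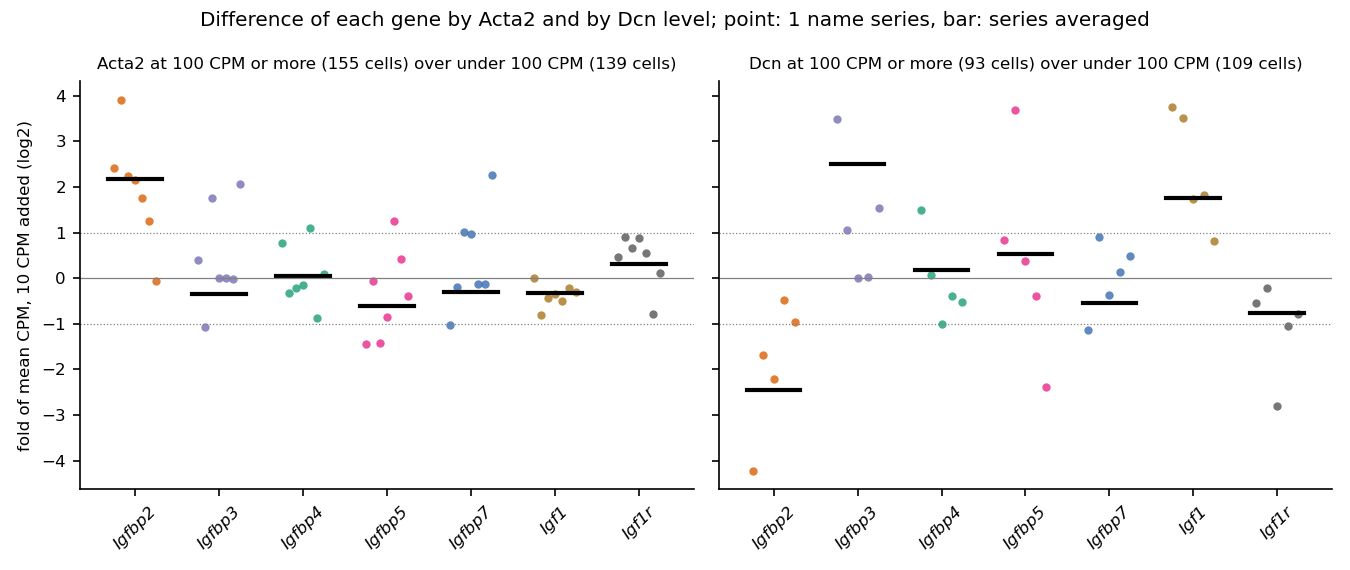
Fold of mean CPM with 10 CPM added (vertical axis, log2) for cells at or above 100 CPM over cells below, by Acta2 and by Dcn; points are name series and bars the fold of the averaged series means, with dotted lines at 2-fold. Igfbp2 lies at 4.49-fold by Acta2 and 0.182-fold by Dcn, while Igf1 lies at 3.38-fold and Igfbp3 at 5.66-fold by Dcn.

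Correlation across cells gave a second description, as Spearman's correlation of log2(CPM + 1) within each name series. Depth varied widely within a series, from 34046 to 3033857 reads in series 2, and its part in these correlations was not tested. The values are weak. Above 0 in every series that gave a value were Igfbp2, Igfbp7 and Igf1r with Acta2, 3 of 7 against 4.41% of 8852 genes, and Igfbp3 and Igf1 with Dcn, 2 of 7 against 1.51%. Some of these signs rest on very few cells. Igfbp3 had a read in only 5.26%, 5.88% and 6.82% of cells of series 3, 6 and 7, and Igfbp2 in 2.94% of series 6. Below 0 in every series was none of the 7 with Acta2, against 0.316%, and none with Dcn, against 0.667%. The medians over series were 0.29 for Igfbp2, 0.16 for Igfbp7 and 0.18 for Igf1r with Acta2, and 0.22 for Igfbp3 and 0.34 for Igf1 with Dcn. For Igfbp7 the correlation with Acta2 was above 0 in every series while its fold of means by Acta2 was 0.805. These correlations and the folds above use the same cells and are not independent of each other.

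For each of the 7 genes, the 3 genes of highest and the 1 of lowest median correlation were taken among those whose sign never changed between the series with a value. For Igf1 the highest were Lum (0.43), which encodes the matrix proteoglycan lumican, Lef1 (0.41), a transcription factor of Wnt signalling, and C430049B03Rik (0.37), and the lowest was Msn (-0.27). For Igf1r they were the smooth muscle genes Tagln (0.28) and Cnn1 (0.26), and Eif2b5 (0.22), with Lum lowest (-0.19). Lum thus stood at opposite ends for the ligand and the receptor.

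For Igfbp2 the highest included Hebp1 (0.29) and Mylk (0.29, from 5 series only), and the lowest was Sfi1 (-0.18). Mylk, which encodes myosin light chain kinase, was detected in 13.6% of cells. With the comparison limited to genes present in 30% of cells or more the highest were Acta2, Myl9 and Ctps. For Igfbp3 they were Taok3 (0.38), Sec13 (0.31) and Twf1 (0.30), with Npc1 lowest (-0.21), over the 5 series with reads. In series 3, 6 and 7 of these, at most 6.82% of cells had a read of Igfbp3. Igfbp7 had Cfl1 (0.32), Arpc5 (0.32), both of the actin cytoskeleton, and Pmp22 (0.31), a myelin gene, with Ptprs lowest (-0.31). Igfbp4 had Sele (0.26, from 2 series only), Snap23 (0.23) and Syt1 (0.23), with Coq9 lowest (-0.26). Igfbp5 had Mrc2 (0.33), Tspan18 (0.27) and Ifi30 (0.25), with Alcam lowest (-0.23). Under the same 30% limit, 1 of the 3 highest remained for Igfbp4 (Snap23), and 2 of 3 for Igfbp3 (Sec13 and Twf1) and for Igfbp5 (Mrc2 and Tspan18). All 3 remained for Igfbp7, Igf1 and Igf1r.

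The wider pathway list held 33 genes, of which 29 were rows of the table, and Igfbp1, Igfals, Igfbpl1 and Esm1 were not analysed here. At 10 CPM, 9 of the 29 were detected in at least 50% of cells, 16 in 10% to 50% and 4 in fewer. The second ligand, Igf2, was detected in 98.3% of cells with a median of 1091 CPM. Its clearance receptor Igf2r was detected in 89.5% and the adaptor Grb10, which restrains signalling of the receptors, in 99.7%. The insulin receptor Insr was detected in 23.1%, the receptor substrates Irs1 and Irs2 in 28.6% and 16.3%, and the growth hormone receptor Ghr in 44.9%. Of the proteases that cut binding proteins, Htra1 was detected in 50.3% and Pappa in 26.5% of cells. Igfbp6, another binding protein, was detected in 1.36%.

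By the same splits, 25 of these genes could be compared. By Acta2, 1 was at least 2-fold higher and none lower, where 2.38% and 1.80% of 8852 genes were. The median fold was 1.04. The 1 gene was Nov, a matrix protein of the Ccn family, at 130 CPM against 21.7 CPM (4.41-fold), but higher in only 4 of 7 series. By Dcn, 2 were higher and 1 lower, where 3.95% and 4.81% of 8852 genes were, with a median of 1.13. Insr was 2.84-fold and Pik3r1, a subunit of phosphatidylinositol 3-kinase, 2.0-fold higher, each in 3 of 5 series. Irs2 was lower in 5 of 5 series, at 6.25 CPM against 47.4 CPM (0.283-fold), the same direction as Igfbp2 and Igf1r by Dcn. A level 2-fold lower, and lower in every series used, held for 1.5% of all genes compared.

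The 9 cells with at least 2 of the glia markers Sox10, Fabp7 and Erbb3 at 100 CPM stood apart in their use of these genes. Of these cells 6 were in series 2 and 3 in series 1. They were not alike in the class genes. The 6 had neither Acta2 nor Dcn at 100 CPM, while the 3, as every cell of series 1, had Dcn at 100 CPM, and 1 of them had Acta2 too. All 9 cells had high Igfbp7, from 1135 to 3748 CPM with a median of 2130 CPM, against a median of 144.9 CPM in the other cells, of which 54.04% reached 100 CPM. Within series 2, the 6 glia-marker cells had 1135 to 3104 CPM (median 1788) and the other 42 cells 0 to 2784 CPM (median 495.5), so the ranges overlapped. Within series 1, the 3 had 2130 to 3748 CPM and the other 55 cells 23.4 to 2959 CPM.

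The ligands were low in most of the same cells, mainly those of series 2. In series 2 Igf1 reached at most 8.24 CPM in the 6 glia-marker cells, while 19 of the other 42 were at 10 CPM. Igf2, present in nearly every cell, was under 10 CPM in 5 cells in all, and these 5 were glia-marker cells of series 2. The 42 cells of that series without these markers had Igf2 between 138.9 and 26871 CPM. In series 1 the 3 glia-marker cells had Igf2 at 238.3, 288.2 and 1907 CPM. Igfbp2 reached 10 CPM in none of the 9. With so few cells, most of them in 1 name series, what is due to the cell type and what to the series cannot be told apart.

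**Figure D5:**
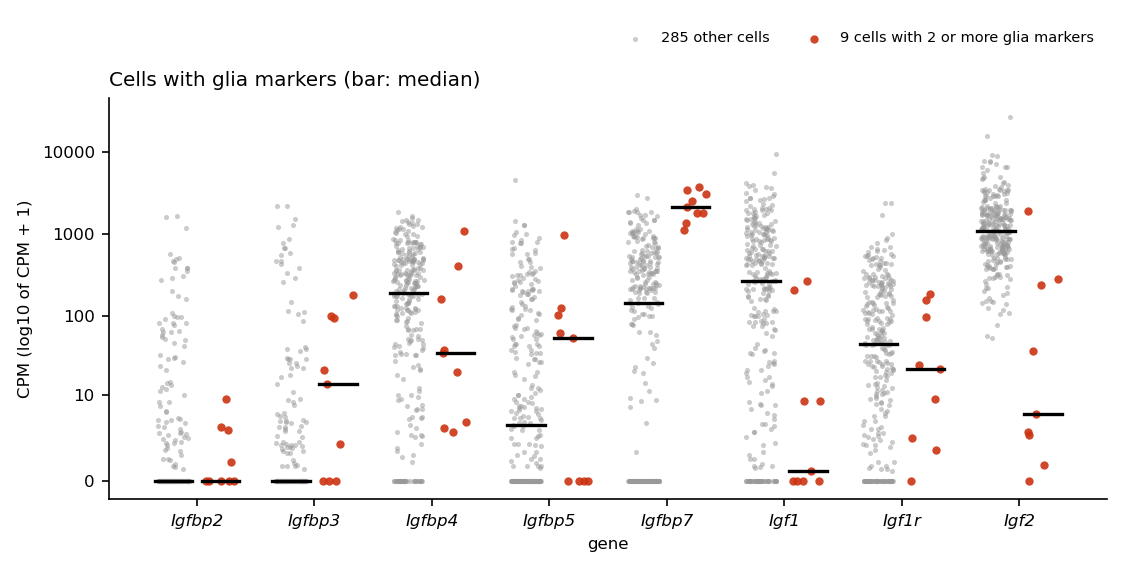
Level of the 7 genes and Igf2 (vertical axis: CPM on a log10 scale with 1 added) in the 9 cells with at least 2 glia markers at 100 CPM (red) and the other cells (grey); bars are medians. Igfbp7 lies between 1135 and 3748 CPM in the 9 cells, and Igf2 has a median of 5.49 CPM there against 1105 CPM.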

How the data were processed

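The authors deposited a table of raw read counts for 15124 genes in 294 cells and a second table named with the abbreviation SCT. The second holds whole numbers that add up to 1110845 to 1216916 in a cell, was treated as a score with no fixed unit as deposited by the authors, and served only as an alternative. The submitters' processing notes name HISAT2 2.1.0, featureCounts, Seurat and the build mm10, without their roles. The annotation is not given in the sources used here. Per the labels' protocols, cells were captured on a Fluidigm C1 chip, imaged, and sequenced as full-length cDNA after SMARTer and Nextera XT preparation, with no molecular identifiers named. Each cell's column was matched to a sample by its name, and 0 columns were left unused.

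Counts were scaled to CPM (counts per 1000000 reads of a cell), for all 294 cells. Exact Clopper-Pearson 95% intervals were used for shares of cells. Gene positions and exon lengths come from GENCODE M21 on GRCm38, which holds 14554 (96.2%) of the table's gene names, and promoters from RefSeq on GRCm38.p6, where all 7 genes were found. Folds between classes of cells add 10 CPM to both means and use name series with at least 5 cells on either side. Genes for background shares had to be detected in at least 10% of cells. Correlations used log2(CPM + 1). Because no animal is named, cells are not replicates, and no p-value was computed. The genes named are the 7 members, the 3 highest and 1 lowest by correlation for each, and the pathway list. Of the glia marker list, 1 gene was dropped, and it and 1 gene named by correlation are not reported here. Members, lists and splits were chosen with earlier results of these data known. Scripts used Python 3.11.15 with numpy 2.4.6, pandas 2.3.3 and scipy 1.17.1, and were tested on simulated data. Alternatives changed the detection level, the scaling total, the depth, the splits, the added CPM, the length and the name series used.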

Additional observations from a re-analysis of the deposited data

How the results depend on the processing

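At 1 CPM and at 100 CPM the share of cells was 28.9% and 6.80% for Igfbp2, 28.6% and 7.82% for Igfbp3, 87.1% and 62.6% for Igfbp4, 56.1% and 24.5% for Igfbp5, 81.6% and 61.9% for Igf1 and 79.9% and 35.7% for Igf1r, and at 100 CPM it was 55.4% for Igfbp7. These moves follow from the level itself. Leaving out 1 name series at a time gave 10.6% to 19.2% for Igfbp2, 8.90% to 17.6% for Igfbp3, 75% to 80.8% for Igfbp4, 35.6% to 42.7% for Igfbp5, 52.1% to 67.6% for Igfbp7, 71.2% to 81.3% for Igf1 and 65.2% to 69.1% for Igf1r. The share led by Igfbp7 was 34.4% without length and 42.4% to 56% with a series left out. With 100 CPM added, no gene passed 2-fold by Acta2 (0, with Igfbp2 at 1.51) and 1 did by Dcn, with Igfbp2 at 0.604 and Igfbp3 at 1.67; with 1 CPM added, Igfbp2 by Acta2 was 9.46, Igfbp3 by Dcn 12.4 and Igfbp2 by Dcn 0.0852. A larger addition shrinks a fold by construction, so these sizes depend on it both ways. Splitting Dcn at the median of each series gave 5 genes in place of 3, with Igfbp5 at 0.485, turned from 1.44, and Igf1r at 0.474. With a series left out, the count by Dcn was 2 to 4, that over name series 2 to 3, Igfbp3 by Dcn 1.88 to 6.37, Igfbp2 by Dcn 0.147 to 0.353, Igfbp2 by Acta2 3.39 to 5.63 and Igf1 by Dcn 3.14 to 3.93. With all cells as 1 stratum, the correlation was 0.47 for Igfbp2 and 0.41 for Igfbp7 with Acta2, and 0.62 for Igfbp3 and 0.03 for Igf1 with Dcn, where differences between name series enter. Leaving out single highest cells, cells with markers of another type, or name series for the comparison of series was chosen after the data were seen. No fold past the 2-fold limit at the reported setting changed its direction. Folds within it did, for Igfbp3, Igfbp4 and Igfbp7 by Acta2 and for Igfbp4, Igfbp5 and Igfbp7 by Dcn. Cells without a read cannot be told from cells below the depth reached, and no stage or animal can be set beside any value.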

Other observations

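Markers of dividing cells were counted in the cells high for each gene. At least 2 of Mki67, Top2a and Cenpf, genes of the later cell cycle, were at 100 CPM in 61 cells (20.7%). Among the 20 cells with Igfbp2 at 100 CPM there was none, 0 of 20, a count that leaves room for 15% by 3 counts of 20 or 16.8% by the exact interval, and without series 1 there were 0 of 14, which leaves room for 21.4% or 23.2%, above the 20.8% of all cells outside that series. Of the cells at 100 CPM of Igfbp5, 22 of 72 (30.6%) had these markers, and 15 of 51 (29.4%) without series 1. The share was 26.1% for Igfbp3 (6 of 23), 23.9% for Igfbp7, 23.1% for Igf1, 20.7% for Igfbp4 and 18.1% for Igf1r. Without series 1 it was 17.6% for Igfbp3 (3 of 17), 26.2% for Igfbp7, 22.4% for Igf1, 20.6% for Igfbp4 and 19.1% for Igf1r. These shares were looked up after other values had been seen, and the differences between them were not tested.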
